A study of Mus musculus with 12 samples.

Results

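The 28 genes described here make up the core of cholesterol and fatty acid synthesis: the enzymes that build cholesterol from acetyl-CoA, the enzymes that build and desaturate fatty acids, the transcription factors that switch them on, and a pair of genes that limit or move cholesterol. They were chosen by gene symbol from textbook pathways, and all 28 were found among the 47729 genes of the deposited expression table. Each of the 28 passed the filter on low values described below. Cholesterol is made in the endoplasmic reticulum by a long chain of enzymes. The mevalonate arm makes isoprenoid units, which are joined into squalene and closed into lanosterol, the first sterol, and the late enzymes then trim lanosterol into cholesterol. When sterols run low, membrane-bound transcription factors of the SREBP family, encoded by Srebf1 and Srebf2, are cut free and enter the nucleus, where they switch on these enzymes. When sterols are plentiful, the INSIG proteins hold SREBP back. Dividing stem cells need both lipids for new membrane.

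The study used E14Tg2a mouse embryonic stem cells (strain 129/Ola). Wild-type cells (WT) were set beside a line labelled delta 0.7, here delta, which lacks a regulatory region of the transcription factor gene Tcf15 on both alleles. Both genotypes were sampled in serum-free N2B27 medium with 2i and LIF, which keeps stem cells in the naive state (0 h), and again 12 h and 24 h after plating on fibronectin, where N2B27 was supplemented with bFGF, Activin and KOSR to induce epiblast-like cells. There were 2 libraries per group and 6 groups, made of poly(A) RNA and numbered 1 and 2 in the titles, 12 libraries in all. The data columns of the delta line name 1 clone, so genotype and clone cannot be told apart. The labels do not say that the libraries of a group came from separate cultures, so the p-values reflect the spread between these samples alone, and that spread may be technical.

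Before the values, 3 promoters are shown with the motifs found in them. RefSeq held the start sites of 22 of the 28 genes, in 27 windows of 250 bases before the start (build GRCm38.p6). The box CCAAT, bound by NF-Y, a usual partner of SREBP, was present on either strand in 19 of the 27 windows and in 18 of the 22 genes, against 33.8% of all 32851 windows in the table. The Sp1 box GGGCGG was present in 20 of the 27 windows, against 32.7% of all windows. The E-box CACGTG was found in 4 genes (Hsd17b7, Insig1, Dhcr7 and Sc5d), against 6.02% of all windows. The strict sterol regulatory element TCACNCCAC was found only in Hmgcs1, from 137 to 129 bases before the start, against 1.05% of all windows. The 4 motifs do not overlap one another in the sequences below. Hmgcs1 is shown for its sterol element, Ebp as one of the genes whose level fell, and Insig1 as a gene with an E-box. Capitals mark matches to the 4 motifs on either strand, and each sequence is printed 5′ to 3′ on the strand of its gene, without bases that GENCODE M21 marks as exon.
Hmgcs1 (chr13:119690101-119690350, plus strand): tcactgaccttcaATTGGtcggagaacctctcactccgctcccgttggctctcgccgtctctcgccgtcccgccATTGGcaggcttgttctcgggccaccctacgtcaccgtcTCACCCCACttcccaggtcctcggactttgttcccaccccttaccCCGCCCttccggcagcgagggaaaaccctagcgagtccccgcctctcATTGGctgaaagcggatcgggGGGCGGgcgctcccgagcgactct
Ebp (chrX:8193513-8193762, minus strand): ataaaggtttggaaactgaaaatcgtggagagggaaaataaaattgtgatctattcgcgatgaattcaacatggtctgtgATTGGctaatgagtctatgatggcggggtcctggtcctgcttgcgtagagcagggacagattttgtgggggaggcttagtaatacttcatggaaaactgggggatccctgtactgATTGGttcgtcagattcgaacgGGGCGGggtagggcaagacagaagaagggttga
Insig1 (chr5:28071162-28071362, plus strand): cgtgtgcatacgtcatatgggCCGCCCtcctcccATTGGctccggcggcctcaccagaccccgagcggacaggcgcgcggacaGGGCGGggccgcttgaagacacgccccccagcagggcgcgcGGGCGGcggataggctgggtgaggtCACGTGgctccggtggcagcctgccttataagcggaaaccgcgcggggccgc

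A match is a description of letters, not evidence of binding. The levels of Hmgcs1, Ebp and Insig1 are described in turn below.

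Levels are in the deposited unit, FPKM, which divides a gene's fragments by its exon length and the library's depth. The effective depth behind it was 8968980 to 17565700 reads per library, read from the steps between low values, and between 19235 and 22031 genes were above 0. Stem cell markers followed the labels: the summed FPKM of 5 naive markers was 907 to 1299 at 0 h and 236 to 363 at 24 h, and that of 4 epiblast-like markers was 28.3 to 36.2 at 0 h and 304 to 458 at 24 h. Tcf15 itself reached 99.4 and 55.4 FPKM in WT at 24 h and 4.44 and 2.76 in delta. Of genes of other cell types, hepatocyte-type lipid genes (4) summed to at most 0.186 FPKM and primitive endoderm markers (7) to at most 0.99, trophoblast markers (6) to 14.7 to 50.5 and neural markers (4) to 2.12 to 10.2. Fibroblast markers (10, among them Vim, which stem cells also express) summed to 65.1 to 157 FPKM at 0 h, 44.0 to 130 at 12 h and 26.9 to 82.7 at 24 h, with 0 to 3 of the 10 at 0 in a library. The fall of the sum was not shared by most of them. In WT, 6 of 7 tested had a log2 change above 0 at 12 h and 6 at 24 h (medians 0.36 and 0.70). In delta, 2 of 7 were above 0 at 12 h and 4 at 24 h (medians -0.01 and 0.04). The part of fibroblast markers in the results was not tested.

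The 2 replicate 1 libraries at 0 h, 1 of each genotype, stood apart from their partners, and most values below rest on a 0 h group. At 0 h the replicates' log2 differences had a standard deviation (SD) over all genes of 0.66 for WT and 0.83 for delta, against 0.31 to 0.42 in the later groups. Ribosomal protein genes took an estimated 14.2% of reads in the WT one and 16.8% in the delta one, while the other 10 libraries had 7.24% to 9.40%. Mitochondrially encoded genes took an estimated 0.381% to 0.553% of reads in all replicate 1 libraries and 1.54% to 2.44% in all replicate 2 libraries. The replicate numbers thus differed in this share at every time, not only at 0 h. Among the 28 genes, 5 differed by over 1 log2 unit between the 0 h replicates in each genotype (Idi1, Insig1 and Fasn in both, Cyp51 and Srebf1 in WT, Msmo1 and Srebf2 in delta), and 0 did so at 12 or 24 h. The direction was shared by the genotypes: Idi1, Cyp51, Msmo1 and Insig1 were higher in replicate 1, while Fasn, Srebf1 and Srebf2 were higher in replicate 2. Across the 28 genes, the 0 h difference of replicate 1 from replicate 2 had a Spearman correlation with exon length of -0.49 in WT and -0.64 in delta, and with GC content of -0.49 and -0.44. Over all genes the values were -0.24 and -0.30 for length and -0.17 and -0.24 for GC. Such correlations were not confined to 0 h. Among the 28 genes those with length were 0.19 and 0.08 in WT at 12 and 24 h, and -0.37 and -0.69 in delta. Those with GC were -0.21 and -0.47 in WT at 12 and 24 h, and -0.43 and -0.21 in delta. The part of length, GC content, ribosomal protein share or mitochondrial share in the results below was not tested.

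**Figure D1:**
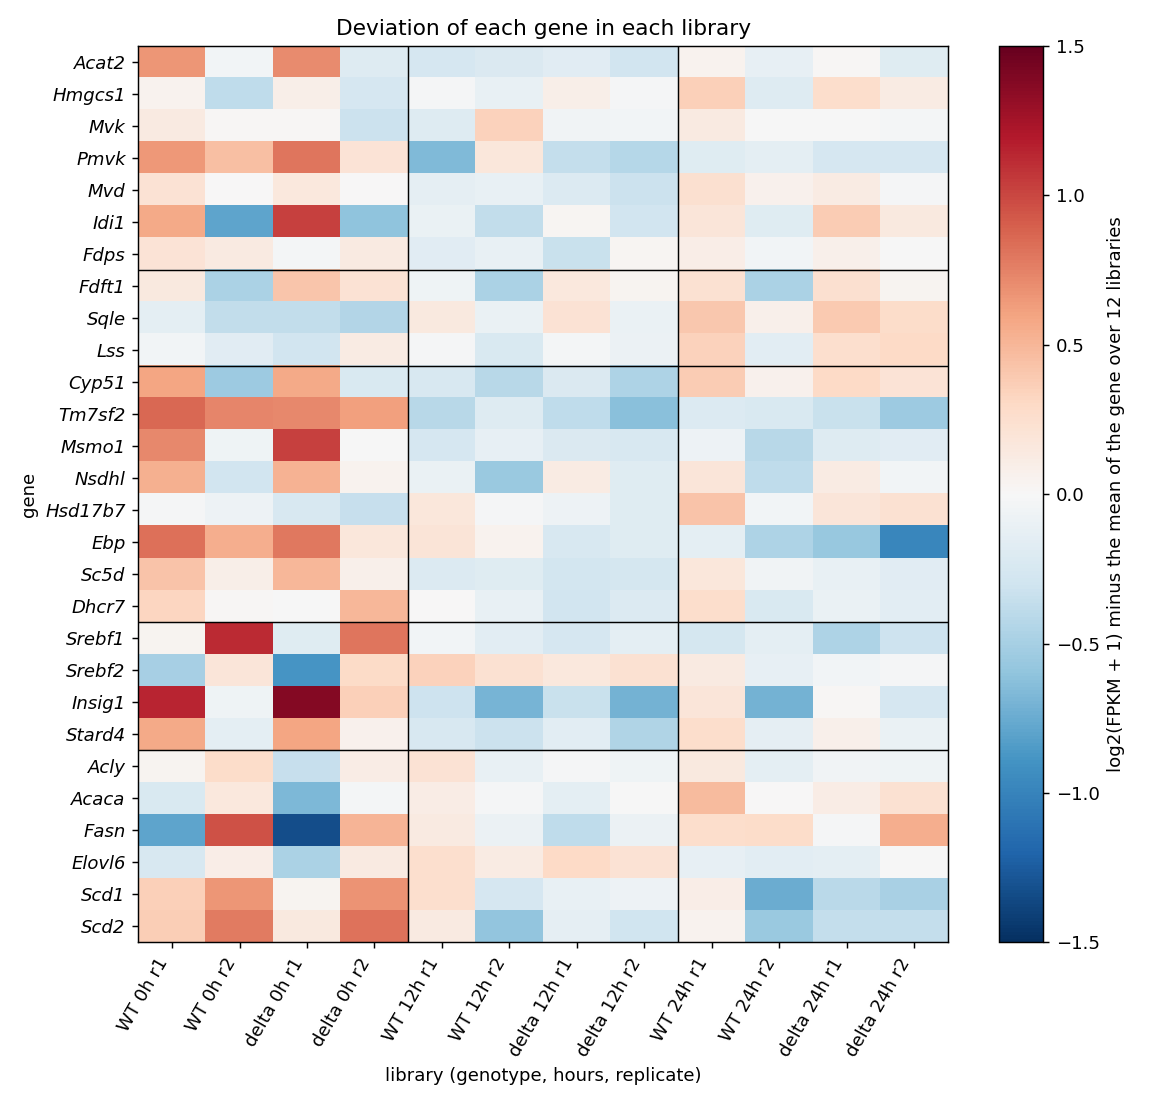
Each cell is the log2(FPKM + 1) of a gene (row) in a library (column) minus the mean of that gene over the 12 libraries, red above and blue below, with r1 and r2 for replicates 1 and 2 and horizontal lines between roles. The 0 h replicate 1 columns of WT and delta look alike and differ from the 0 h replicate 2 columns, with Idi1, Cyp51, Msmo1 and Insig1 high and Fasn and Srebf2 low, while Tm7sf2 and Ebp are above their means in all 4 libraries at 0 h.

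The genes ranged widely in level. By mean FPKM over the 12 libraries, the most abundant were Scd2 (126), a stearoyl-CoA desaturase, Hmgcs1 (114), which makes HMG-CoA, and Acly (109), which supplies cytosolic acetyl-CoA. Srebf2 (63.4), Fdft1 (48.9), Fasn (47.0), Insig1 (44.6) and Sqle (44.5) came next, and these neighbours overlapped in range over the libraries. Lowest were Tm7sf2 (3.77), Hsd17b7 (2.97) and Acaca (2.67), the acetyl-CoA carboxylase that commits acetyl-CoA to fatty acids. The summed FPKM of all 28 was 765 to 1056 per library.

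The first question was how the genes changed from 0 h to the later times. Medium, plating and the naive state changed together over this step, so their parts cannot be told apart. In both genotypes few changes were called. Tm7sf2 and Ebp, which act late in the pathway, fell. Sqle was called higher in delta, with a WT change of the same sign that was not called. Each of these calls was lost in at least 1 fit that left out 1 library. Most of the pathway, Hmgcs1 and Srebf2 included, did not pass the test. Changes were tested with limma on log2(FPKM + 1), on which scale the changes of low genes are understated, over 13981 genes with at least 1 FPKM in at least 2 libraries. A gene was called at a Benjamini-Hochberg adjusted p under 0.05, and ± beside a level is the SD (n = 2). In WT at 12 h, 1 of the 28 genes was called lower and 0 higher, where 1.9% of all genes tested were lower and 2.13% higher. At 24 h in WT, 2 were lower and 0 higher, against 4.94% and 5.27% of all genes. Delta cells had 1 lower and 0 higher at 12 h (3.45% and 3.55% of all genes) and 2 lower and 1 higher at 24 h (7.8% and 7.58% of all genes). So few calls give the set no direction of its own beside these shares. Between 12 and 24 h, limma called 0 of the 28 in each genotype, with 0 at an unadjusted p under 0.05 in WT and 1 in delta, where 0.25% and 0.157% (WT) and 0.758% and 0.601% (delta) of all genes were called higher and lower.

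**Figure D2:**
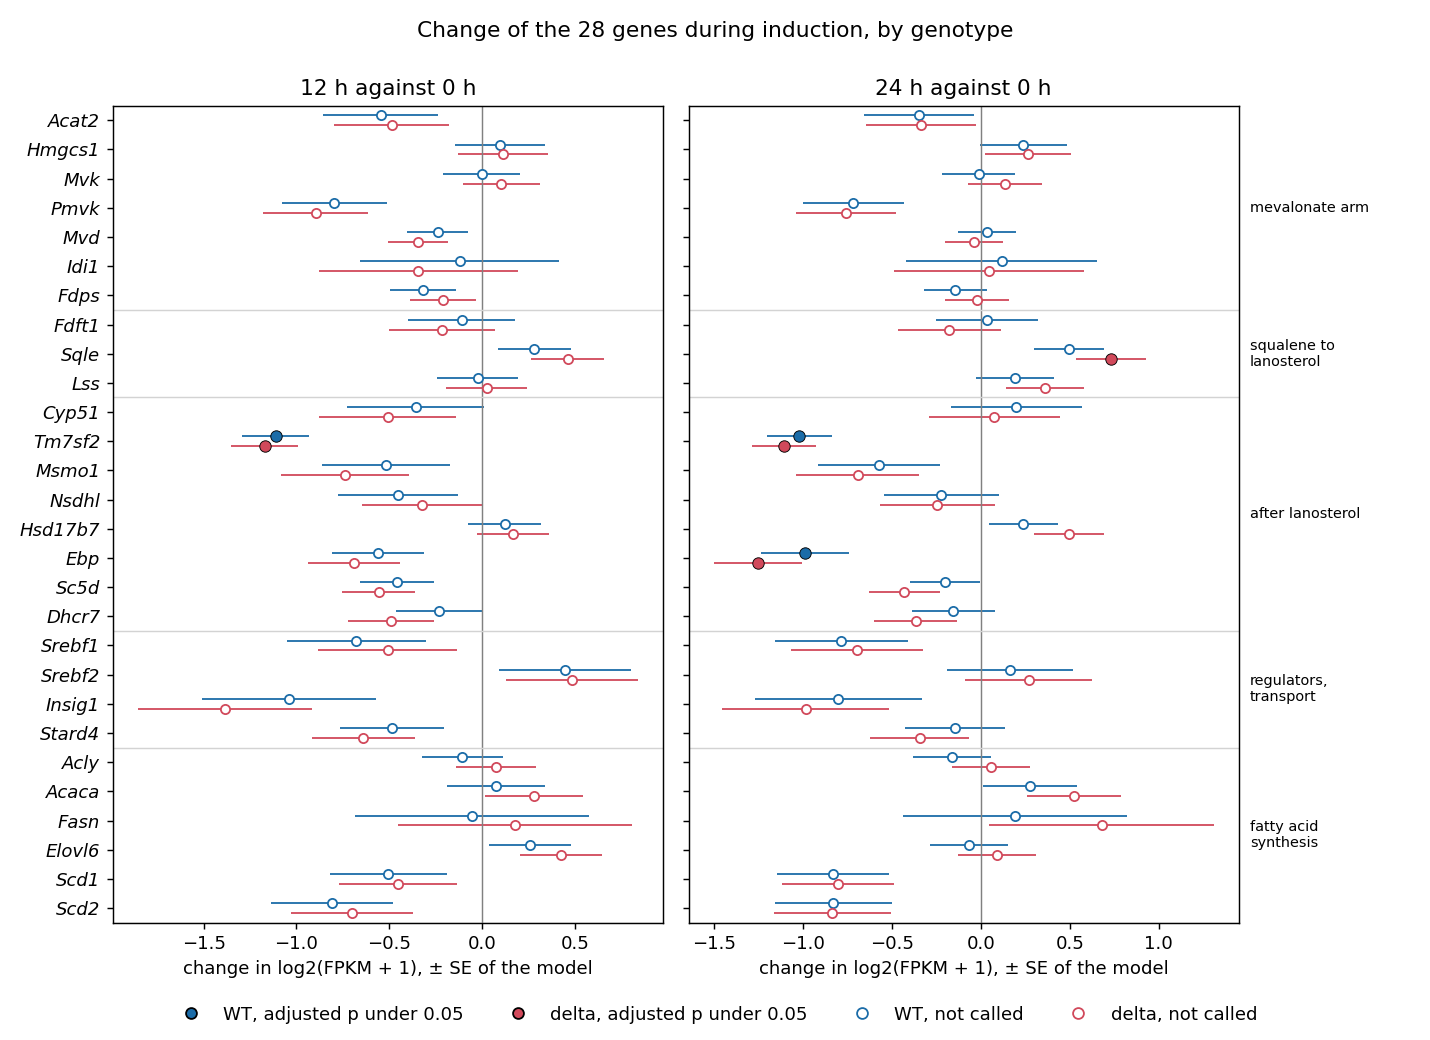
Change in log2(FPKM + 1) with the model's standard error for each of the 28 genes at 12 h (left) and 24 h (right) against 0 h, WT in blue and delta in red, filled where the adjusted p was under 0.05. Filled points are Tm7sf2 in all 4 comparisons, Ebp at 24 h in both genotypes and Sqle at 24 h in delta, and the error bars of Idi1, Insig1, Fasn, Cyp51, Srebf1 and Srebf2 are the widest.

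Non-overlap between the libraries of 2 times is a looser description, and the share of all genes that met it is given beside each count within a genotype. At 12 h, 14 of 28 were lower than at 0 h in both WT libraries and 4 were higher, against 25.8% and 22.2% of all genes. In delta these counts were 12 and 3, against 24.3% and 24.4%. Shared by both genotypes were 11 lower genes (Pmvk, Mvd, Tm7sf2, Msmo1, Ebp, Sc5d, Dhcr7, Insig1, Stard4, Scd1 and Scd2) and 3 higher ones (Sqle, Hsd17b7 and Elovl6). The share of all genes that met this in both genotypes was not counted, so the shared counts have no background beside them. At 24 h the counts lower and higher than 0 h were 8 and 1 in WT (27.4% and 24.3% of all genes) and 10 and 5 in delta (26.7% and 24.8%). From 12 to 24 h more genes were higher than lower: 7 against 3 in WT (21.2% and 24.2% of all genes) and 16 against 6 in delta (24.9% and 28.9%). For all members the median 12 h change was -0.28 (WT) and -0.34 (delta), beside -0.02 and -0.03 over all genes tested. With both 0 h replicate 1 libraries left out, these medians were -0.13 and -0.20. At 24 h the medians were -0.14 and -0.11, beside -0.03 and -0.05 over all genes, and with quantile normalization they were -0.0017 and 0.03. The set as a whole thus had no stable direction at 24 h.

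As no gene's change was shown to differ between WT and delta, comparisons averaged over the genotypes were added after the data were seen. Same-numbered libraries of the genotypes moved together within their groups, so the p-values of these comparisons are too small, and a fit in which each such pair was first averaged is given beside them. By the averaged comparison limma called 5 genes lower and 0 higher at 12 h, against 8.57% and 8.71% of all genes, and 5 lower and 1 higher at 24 h, against 14.4% and 13.7% of all genes. With the pairs averaged, 1 and 2 genes were lower and 0 higher, in a fit that called 642 and 1709 of all 13981 genes at 12 and 24 h. From 12 to 24 h, 0 were called, with unadjusted p under 0.05 for 1 higher and 1 lower gene, while 2.2% and 2.08% of all genes were called higher and lower.

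In the mevalonate arm, 0 of 7 genes were called in WT or delta. Acat2 (acetoacetyl-CoA thiolase, which starts the pathway), Hmgcs1, Mvk and Pmvk (the kinases of mevalonate), Mvd (the decarboxylase that makes isopentenyl diphosphate), Idi1 (its isomerase) and Fdps (farnesyl diphosphate synthase) make up this arm. At 12 h their median change was -0.24 (WT) and -0.34 (delta), and at 24 h -0.01 and -0.02. Pmvk showed the largest difference of the arm. In WT it was measured at 23.0 and 19.9 FPKM at 0 h, 8.66 and 16.3 at 12 h, and 12.4 and 12.9 at 24 h. The delta libraries gave 25.6 and 16.65 FPKM at 0 h, 10.9 and 10.4 at 12 h, and 11.8 and 11.8 at 24 h. All 4 libraries at 0 h were thus above all 8 later ones, although the margin to WT 12 h replicate 2 was small. Within a genotype the changes were not called (-0.80 ± 0.28, standard error, adjusted p = 0.186 in WT and -0.89 ± 0.28, 0.0978 in delta at 12 h, limma). Averaged over genotypes Pmvk fell by 0.85 ± 0.20 at 12 h (limma adjusted p = 0.0205) and by 0.74 ± 0.20 at 24 h (0.0237). With same-numbered pairs averaged the adjusted p was 0.104 and 0.0927, without the 0 h replicate 1 libraries 0.0603 and 0.078. Leaving out single libraries (WT 0 h replicate 1, WT 12 h replicate 1 or either delta 12 h library at 12 h, and WT 0 h replicate 1 or any 24 h library at 24 h) gave adjusted p-values of 0.0622 to 0.0743.

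Hmgcs1, the gene with the sterol element printed above, stayed high throughout. WT libraries had 118 and 86.7 FPKM at 0 h, 112.04 and 105 at 12 h, and 145 and 98.6 at 24 h. In delta the values were 121 and 95.1, then 119.9 and 112.13, then 136 and 123. The WT libraries overlapped at all times, while both delta libraries at 24 h were above the delta libraries of 0 and 12 h. The changes at 24 h were 0.24 ± 0.24 in WT and 0.27 ± 0.24 in delta and were not called (limma adjusted p = 0.604 and 0.488). With quantile normalization the 24 h change averaged over genotypes went from 0.25 to 0.52 and was called (0.0129). Mvd was lower at 12 h than at either other time in every library of both genotypes: it ran from 28.7 and 24.7 FPKM at 0 h to 22.3 and 22.6 at 12 h and 29.1 and 25.6 at 24 h in WT, and from 27.6 and 24.6 to 21.2 and 19.4 and back to 26.7 and 24.2 in delta. Neither step was called (adjusted p from 0.239 to 0.898, limma). Idi1 showed mainly the split at 0 h, with 13.7 against 4.71 FPKM in the WT replicates and 19.1 against 5.54 in delta, and 6.69 to 11.8 FPKM at the later times. Without the 0 h replicate 1 libraries the 24 h change of Idi1 was 0.80 in WT, 0.86 in delta and 0.83 on average, against 0.12, 0.05 and 0.08 with them. In each genotype the 24 h libraries lay between the replicates of 0 h, so the direction depended on the 0 h library. Acat2 showed the same split, with 51.8 and 53.3 FPKM in the replicate 1 libraries at 0 h and 26.3 to 33.5 in the other 10. Mvk (14.4 to 23.3 FPKM) and Fdps (4.77 to 7.41) varied little. Fdps shares 1124 exon bases with a read-through gene, Gm43738, and has pseudogenes, and Idi1 and Acat2 have close paralogs, so their reads may be split.

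Of the 3 genes from farnesyl diphosphate to lanosterol, Sqle, which encodes squalene epoxidase and is counted among the rate-limiting steps of the pathway, was the member that rose. WT libraries had 39.2 and 33.6 FPKM at 0 h, 48.5 and 40.6 at 12 h, and 58.1 and 46.0 at 24 h. Delta libraries had 33.6 and 32.0 FPKM at 0 h, 50.9 and 40.7 at 12 h, and 57.4 and 53.0 at 24 h. Every later library was above every 0 h library of either genotype. In delta at 24 h Sqle rose by 0.73 ± 0.20 on the log2 scale (limma adjusted p = 0.0353), and in WT the change was 0.50 ± 0.20 (0.156). The 2 changes were not shown to differ (difference 0.24 ± 0.28, adjusted p = 1, limma). Averaged over genotypes the rise was 0.62 ± 0.14 (limma adjusted p = 0.0103), and 0.109 with same-numbered pairs averaged. Without the 0 h replicate 1 libraries it was 0.69. The delta call did not survive removal of delta 24 h replicate 1 (0.68, adjusted p = 0.187), delta 24 h replicate 2 (0.79, 0.14) or, at 0.0516 to 0.055, delta 0 h replicate 1 or any of the 12 h libraries. Under the replicate block, the averaged change at 12 h was also called (0.37, limma adjusted p = 0.0302), against 0.0953 without it, and with quantile normalization the WT change at 24 h was called (0.64, 0.0425).

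Lss, which closes squalene epoxide into lanosterol, was not called. It was measured at 8.99 and 9.30 FPKM in delta at 24 h, above the 5.85 and 8.11 of delta at 0 h, and at 9.65 and 6.48 in WT at 24 h, which overlapped the 7.15 and 6.47 of WT at 0 h. Fdft1, the squalene synthase, ranged from 34.0 to 64.1 FPKM with no call at any time. It shares 774 exon bases with Ctsb on the opposite strand, a gene whose mean went from 56.0 to 15.1 FPKM in WT between 0 and 24 h. The strand setting of the counting is not known here, so the level of Fdft1 is uncertain. Lss likewise overlaps an antisense gene by 381 bases.

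The 8 genes after lanosterol held the clearest changes. Tm7sf2 fell at 12 h and stayed low in both genotypes, and Ebp fell by 24 h. The other 6 (Cyp51, Msmo1, Nsdhl, Hsd17b7, Sc5d and Dhcr7) were not called within a genotype. For the 8 the median change was -0.45 (WT) and -0.53 (delta) at 12 h, then -0.21 and -0.40 at 24 h. Tm7sf2 encodes a sterol C14 reductase, which acts just after the demethylase Cyp51. In WT it stood at 7.08 and 6.39 FPKM at 0 h, 2.31 and 2.87 at 12 h, and 2.85 and 2.78 at 24 h. Delta gave 6.30 and 5.77 FPKM, then 2.39 and 1.87, then 2.52 and 2.04. The 4 libraries at 0 h, replicate 1 and 2 alike, were all at 5.77 FPKM or more and the 8 later ones all at 2.87 or less. The mean in WT went from 6.74 ± 0.49 to 2.59 ± 0.40 at 12 h, a fall of 1.11 ± 0.18 on the log2 scale (limma adjusted p = 0.0104), and in delta from 6.04 ± 0.38 to 2.13 ± 0.37, a fall of 1.17 ± 0.18 (0.00628). At 24 h the falls from 0 h were 1.02 ± 0.18 (0.0075) and 1.10 ± 0.18 (0.00375). Averaged over genotypes the falls were 1.14 ± 0.13 and 1.06 ± 0.13, and they were called under all 21 alternatives, with adjusted p-values up to 0.0241 and 0.0142 (limma).

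Within a genotype 1 library could end the Tm7sf2 call while the size held. Without WT 0 h replicate 1 the WT 12 h value was -1.05 (limma adjusted p = 0.0601) and without WT 12 h replicate 1 it was -0.996 (0.105). The WT 24 h value was -1.03 (0.0566) and -1.01 (0.0545) without replicate 1 or 2 of that group. In delta, the calls were lost without 12 h replicate 2 (-1.05, 0.0777) and without 24 h replicate 2 (-0.9997, 0.0507). Without both 0 h replicate 1 libraries the 4 changes kept about their size (-1.05, -0.95, -1.12 and -1.05). Tm7sf2 shares 532 exon bases with Vps51, which lies on the same strand, so reads there could be credited to either. The mean of Vps51 was 7.54, 6.82 and 4.78 FPKM at 0, 12 and 24 h in WT and 6.51, 5.83 and 4.08 in delta, and its part in the Tm7sf2 values was not tested. Lbr, the other C14 reductase, stood far higher: its mean was 62.2, 46.5 and 49.2 FPKM in WT and 71.9, 53.9 and 52.4 in delta, and it was not called at 24 h (limma adjusted p = 0.737 and 0.51).

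Ebp, the sterol isomerase that moves a double bond within the ring, declined at each step. WT libraries had 23.6 and 19.3 FPKM at 0 h, 15.0 and 13.4 at 12 h, and 11.6 and 9.13 at 24 h. The delta values were 23.1 and 14.6, then 10.8 and 11.3, then 8.38 and 6.06. Within each genotype no library of a later time reached a library of an earlier time. At 24 h Ebp fell by 0.99 ± 0.25 in WT (limma adjusted p = 0.0358) and by 1.25 ± 0.25 in delta (0.00965). Averaged over genotypes it fell by 1.12 ± 0.17, and this was called under all 21 alternatives (adjusted p from 0.000352 to 0.0309). The WT call alone was fragile: 10 of the 12 single libraries left out ended it, all but the delta 0 h libraries, with values from -1.14 to -0.83 and adjusted p from 0.0508 to 0.208, and keeping all genes in the fit gave 0.059. In delta 1 library did so, 24 h replicate 2 (-1.05, 0.0962). At 12 h the changes of -0.56 ± 0.25 and -0.69 ± 0.25 were not called, but under the replicate block the delta change was (adjusted p = 0.0466, limma). The averaged 12 h fall of 0.63 ± 0.17 (0.0394) was at 0.201 with pairs averaged, at 0.0673 with no filter on low values, at 0.0868 without the 0 h replicate 1 libraries, and at 0.0536 to 0.125 without any single library other than a replicate 2 library at 0 h.

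Sc5d, the sterol desaturase after Ebp, was lowest at 12 h: 11.7 and 9.04 FPKM at 0 h, 7.16 and 7.27 at 12 h, and 9.62 and 8.07 at 24 h in WT, and 12.3 and 8.93, then 6.75 and 6.86, then 7.70 and 7.34 in delta. The 4 libraries at 12 h were below all others of either genotype. Averaged over genotypes Sc5d fell by 0.51 ± 0.14 at 12 h (limma adjusted p = 0.0377). The call did not hold with pairs averaged (0.223), without the 0 h replicate 1 libraries (0.0518), with quantile normalization (0.0567), with no filter on low values (0.0538), or without any single library other than a replicate 2 library at 0 h (0.0569 to 0.123). Cyp51 was likewise lower at 12 h than at 24 h, with 21.3 and 18.7 FPKM against 33.4 and 26.6 in WT and 21.7 and 18.2 against 31.3 and 29.3 in delta, but these differences were not called (0.56 ± 0.37 and 0.58 ± 0.37, limma adjusted p = 0.966 and 0.787). Its 0 h libraries were split, at 38.8 and 17.1 in WT and 38.0 and 21.6 in delta. The 24 h change thus depended on the 0 h library: it was 0.20 in WT with both and 0.77 with the 0 h replicate 1 libraries of both genotypes left out.

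Msmo1, the methyl oxidase that works with Nsdhl and Hsd17b7 to strip methyl groups from the ring, had 28.6 and 35.7 FPKM in the 0 h replicate 1 libraries and 12.5 to 16.9 in the other 10. Nsdhl ranged from 11.9 to 26.5 FPKM, with both 0 h replicate 1 libraries highest. Hsd17b7 was low, and in delta it went from 2.32 and 2.10 FPKM at 0 h to 3.45 and 3.59 at 24 h (0.50 ± 0.19, limma adjusted p = 0.122), while WT at 24 h was split at 4.27 and 2.83. Dhcr7, which reduces 7-dehydrocholesterol to cholesterol, had 10.2 to 14.8 FPKM at 0 h and 8.21 to 12.5 later. Its 12 h change in delta was -0.49, and -0.74 without the 0 h replicate 1 libraries, against a single 0 h library. The replicate block fits 1 difference between replicates 1 and 2 for all times and both genotypes, and does not pair libraries within a time. Under it, Msmo1 (-0.63, limma adjusted p = 0.0418) and Hsd17b7 (0.37, 0.0435) were also called for the averaged 24 h change.

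**Figure D3:**
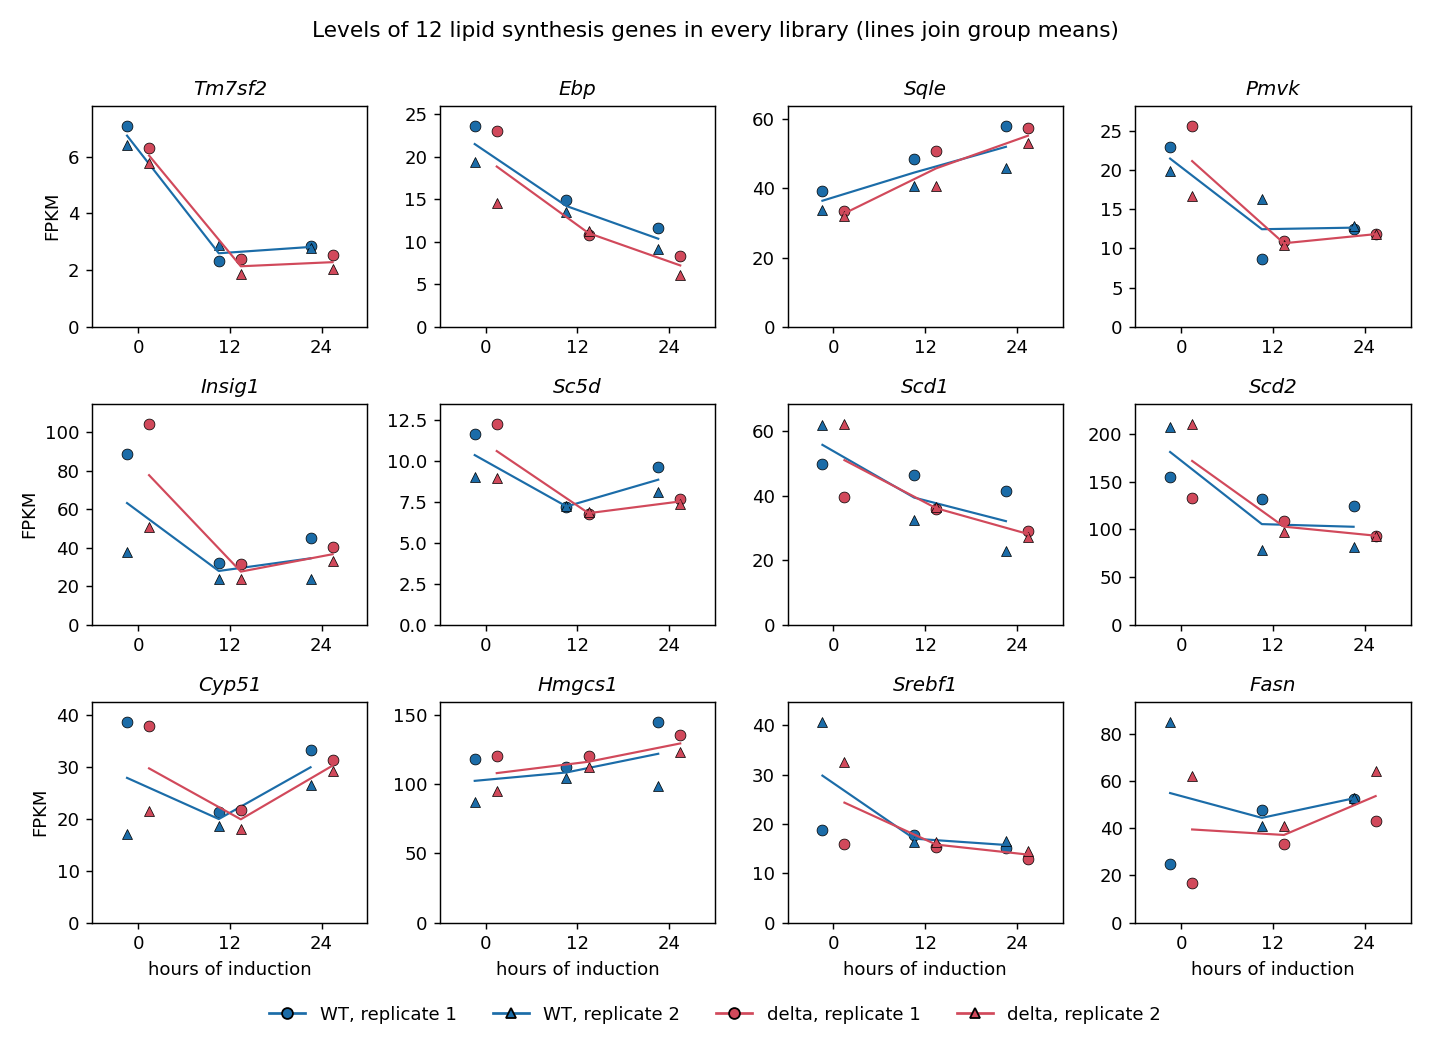
FPKM of 12 of the genes in each library against hours of induction, WT in blue and delta in red, circles for replicate 1 and triangles for replicate 2, with lines through the group means. Tm7sf2 and Ebp at 0 h lie above all later libraries of their genotype, Sqle lies below, and the 0 h replicates of Insig1, Cyp51, Srebf1 and Fasn lie far apart.

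The regulators held 0 called genes of 4 in either genotype (median -0.58 and -0.57 at 12 h, -0.46 and -0.52 at 24 h). Insig1, which retains SREBP in the endoplasmic reticulum and is itself an SREBP target, had the largest fitted change of the set, in delta at 12 h. Its level was 88.7 and 37.9 FPKM at 0 h, 31.9 and 24.0 at 12 h, and 45.1 and 24.0 at 24 h in WT. In delta it was 105 and 51.0, then 31.4 and 23.9, then 40.2 and 33.2. The 12 h libraries were below all 0 h libraries, but the replicates at 0 h differed from each other by over 1 log2 unit. The 12 h change was -1.04 ± 0.47 in WT and -1.38 ± 0.47 in delta (limma adjusted p = 0.307 and 0.12). Under the replicate block both were called (adjusted p = 0.0459 and 0.0117), as was the 24 h change in delta (-0.98, 0.027) and the averaged 24 h change (-0.89, 0.00579). Averaged over genotypes Insig1 fell by 1.21 ± 0.33 at 12 h (0.0364), but the adjusted p was 0.168 with pairs averaged, 0.0791 with no filter on low values, 0.106 at a change of -0.66 without the 0 h replicate 1 libraries, and 0.0586 to 0.123 without either of these, any 12 h library or either delta 24 h library.

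Srebf1 and Srebf2 were both higher in replicate 2 at 0 h, in each genotype. Srebf1, whose product mainly drives fatty acid genes, had 18.8 and 40.7 FPKM in the WT replicates at 0 h and 16.0 and 32.7 in delta, with 13.0 to 17.8 at all later times. Its 24 h change was -0.78 ± 0.37 in WT and -0.70 ± 0.37 in delta (limma adjusted p = 0.242 and 0.242). Without the 0 h replicate 1 libraries these were -1.32 and -1.19, each against a single 0 h library. Under the replicate block the averaged change of -0.74 was called (limma adjusted p = 0.029). Srebf2, the main driver of cholesterol genes, had 43.5 and 70.1 FPKM in WT at 0 h and 33.1 and 75.6 in delta, and 56.7 to 78.9 later, so no direction from 0 h could be read. From 12 to 24 h it went from 78.9 and 72.6 to 68.1 and 56.7 in WT. In delta it went from 68.9 and 72.3 to 60.3 and 60.8. These libraries did not overlap, but neither step was called. Stard4, which carries cholesterol between membranes, had 11.6 to 20.0 FPKM at 0 h, 9.18 to 11.5 at 12 h and 11.7 to 15.8 at 24 h, and its averaged 12 h change (-0.56) was called under the replicate block (limma adjusted p = 0.0155).

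In fatty acid synthesis 0 of 6 genes were called in either genotype (12 h median -0.08 for WT and 0.13 for delta, 24 h median -0.11 and 0.07). Scd1 and Scd2, the desaturases that make oleate-type fatty acids, were lower after induction in all libraries. Scd2 had 155 and 207 FPKM at 0 h, 132 and 78.8 at 12 h, and 123.99 and 81.4 at 24 h in WT. The delta values were 133 and 211, then 109 and 96.8, then 93.4 and 93.3. Scd1 ran from 49.6 and 61.8 FPKM to 46.3 and 32.4 and to 41.4 and 22.7 in WT, and from 39.7 and 62.2 to 35.7 and 36.5 and to 28.9 and 27.3 in delta. Within each genotype no later library reached a 0 h library. Averaged over genotypes, Scd1 fell by 0.82 ± 0.22 (limma adjusted p = 0.0249) and Scd2 by 0.83 ± 0.23 (0.0267) at 24 h. With pairs averaged the adjusted p-values were 0.102 and 0.123, and with quantile normalization 0.0754 and 0.177, and with no filter on low values the call for Scd2 was lost too (0.0503). Both calls were also lost without WT 0 h replicate 2, WT 24 h replicate 2 or either delta 24 h library (0.0593 to 0.0997). Without the 0 h replicate 1 libraries, which were the lower ones for these genes, the falls were 1.05 and 1.10. Under the replicate block the averaged 12 h change of Scd2 (-0.75) was called at 0.0459, against 0.0544 without it. Scd1 and Scd2 are close paralogs, so reads may be split between them.

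Fasn, the fatty acid synthase, was the least steady gene of the set at 0 h, with 24.6 and 85.1 FPKM in the WT replicates and 16.7 and 62.2 in delta, and 33.3 to 64.1 later. Its 24 h change had a standard error of 0.63, the widest of the set. Without the 0 h replicate 1 libraries, which were the lower ones, its averaged 12 h change went from 0.06 (limma adjusted p = 0.931) to -0.83, against a single 0 h library per genotype. Acaca showed the same order at 0 h at a much lower level, 2.09 and 3.04 FPKM in WT and 1.27 and 2.54 in delta, with 2.27 to 4.04 later. Acly had 84.7 to 131 FPKM in all libraries and was not called (0.06 ± 0.22 in delta and -0.16 ± 0.22 in WT at 24 h). Elovl6, which lengthens the product of Fasn, was highest at 12 h, with 36.7 to 41.5 FPKM against 23.9 to 37.0 at 0 h and 29.9 to 33.4 at 24 h, and was not called.

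The second question was whether loss of the Tcf15 regulatory region altered lipid synthesis. By limma 0 of the 28 genes were called between delta and WT at 0, 12 or 24 h or averaged over the times. The fit ignored the pairing of same-numbered libraries. Over the 28 genes their deviations had correlations of 0.93, 0.21 and 0.39 (0, 12 and 24 h). A deviation shared by a pair cancels in delta minus WT but still counts in the error. The p-values in this paragraph thus tend to be too large, and the 0 calls do not show that the genotypes were alike. No fit paired libraries within a time. Over all genes, 0 were called higher at any time (0%), and 0.00715%, 0.0143%, 0.00715% and 0.0143% lower. At an unadjusted p under 0.05 there were 0 members at each time and 1 on average, Ebp. The median difference of the 28 was -0.07, -0.06 and -0.04 at 0, 12 and 24 h, beside 0.013, 0.011 and 0.0039 over all genes. Libraries of the genotypes did not overlap for 1 gene higher and 4 lower in delta at 0 h (6.52% and 6.21% of all genes), 2 and 6 at 12 h (16.8% and 15.2%), and 0 and 5 at 24 h (14.3% and 16.4%). Ebp was lower in delta in all 6 same-numbered pairs, with log2 differences from -0.52 to -0.03 and an average of -0.34 ± 0.14 (unadjusted p = 0.0413, adjusted p = 1, limma). Mvd was also lower in 6 of 6 pairs (-0.09 ± 0.09). Fdft1 (0.37 ± 0.17, unadjusted p = 0.0505) and Idi1 (0.23 ± 0.31) were higher in 6 of 6, and Fdft1 carries the overlap with Ctsb given above. Tm7sf2 was lower in 5 of 6 pairs (-0.19 ± 0.10). The share of all genes with 6 of 6 pairs in 1 direction was not counted, so these counts have no background beside them. All pairs set the same delta clone against the same WT line, so they are not 6 independent observations. For the differences in the 12 h and 24 h changes between genotypes, 0 of the 28 were called, with 0 at an unadjusted p under 0.05 and 0% of all genes called.

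**Figure D4:**
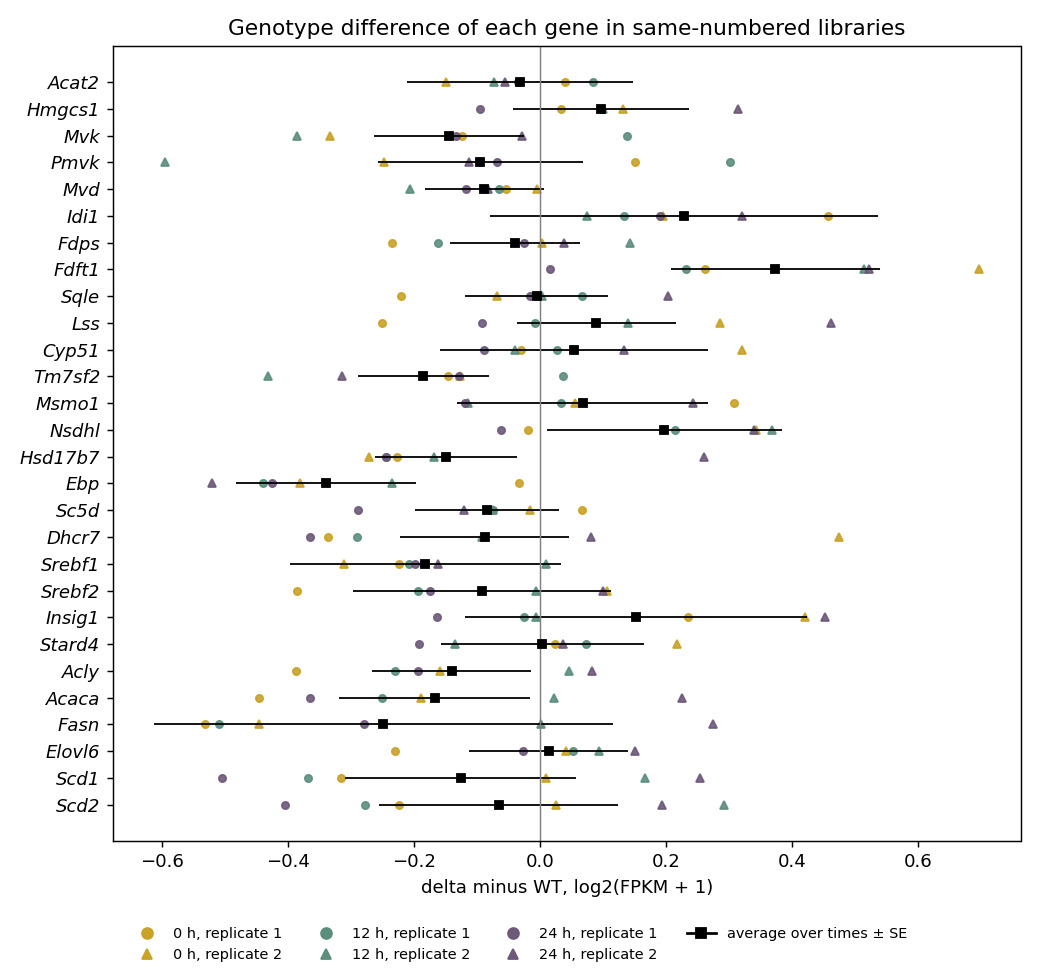
Difference in log2(FPKM + 1), delta minus WT, of each of the 28 genes in the 6 same-numbered pairs of libraries (colour for time, circle or triangle for replicate 1 or 2), with the average over times and its standard error as a black square and line. Ebp and Mvd lie left of 0 and Fdft1 and Idi1 right of 0 in all 6 pairs, and the pairs of most other genes lie on both sides.

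Further genes of the same pathways gave context. At 24 h, 5.27% of all genes were called higher and 4.94% lower in WT, and 7.58% and 7.8% in delta, with medians of -0.03 and -0.05. Of the SREBP processing genes (9 tested, among them Scap and the site proteases), 0 were called in WT or delta at 24 h, with medians of -0.06 and -0.29. Of other isoprenoid and sterol genes, 0 of 10 were called, with medians of -0.31 and -0.36, and 1 of the 10 had a change above 0 in each genotype. Among other fatty acid genes, 1 of 23 was higher and 3 lower in WT at 24 h, and 1 higher and 7 lower in delta. The malic enzyme Me1, which supplies NADPH for lipid synthesis, went from 21.9 and 16.1 FPKM at 0 h to 10.5 and 7.04 at 24 h in WT, a fall of 1.04 ± 0.23 (limma adjusted p = 0.0212), and it fell by 1.18 ± 0.23 in delta (0.00938). Slc25a1, which exports the citrate that Acly cleaves, fell by 1.05 ± 0.28 (0.0473) and 1.14 ± 0.28 (0.0264). Elovl7, an elongase, went from 6.43 and 3.02 FPKM to 0.345 and 0.227 in WT and fell by 2.09 ± 0.29 (0.00202). Acsl5, which activates fatty acids, rose from 4.01 and 1.49 FPKM to 12.9 and 10.6 in WT, by 1.84 ± 0.38 (0.0149), and by 2.25 ± 0.38 in delta (0.00431).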

How the data were processed

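RNA of 12 libraries in 6 groups was measured as FPKM per gene, which the authors computed and deposited as 1 table. The submitters' processing notes name cutadapt, STAR 2.5.2b, featureCounts 1.5.1, edgeR 3.16.5 and mm10, with no role or order, and the strand setting of the counting was not stated in the sources used here. Columns were matched to samples by name, and 0 others held sample values. Low values were whole reads within 0.01 for 82.5% to 85.0% of genes under 200 reads. As this holds for only part of the genes, no count test was run. The filter kept genes with at least 1 FPKM in at least 2 libraries. A linear model with 6 groups and a mean-variance trend was fitted to log2(FPKM + 1) of the 13981 genes with limma 3.58.1 (R 4.3.3), with 6 residual degrees of freedom, and p-values were adjusted by Benjamini-Hochberg over all genes. The steps were tested on simulated data. Tables and figures used Python 3.11.15, numpy 2.4.6, pandas 2.3.3 and matplotlib 3.10.9. Exon lengths came from GENCODE M21 (47310 of 47729 gene IDs matched) and promoters from RefSeq. The members and gene lists were chosen with earlier results of these data known. The text names all 28 members, Tcf15, and up to 4 called genes of smallest adjusted p at 24 h from each wider list, with further genes where a member shares reads or a reaction with them. Same-numbered WT and delta libraries deviated together from their group means (correlation 0.70, 0.28 and 0.37 at 0, 12 and 24 h), so the numbers were taken to pair them. A fit with the replicate number as a block is given where it changed a call. The block is 1 replicate difference for all times, so deviations that a pair shared at a single time remain in that fit. The comparisons averaged over genotypes and the averaging of pairs were chosen after seeing the data. Other alternatives were a pseudocount of 0.1, no filter, a minimum of 5 FPKM, TMM scaling, quantile normalization, no trend, both 0 h replicate 1 libraries left out, and each library left out. FPKM keeps no replicate error from counting, so precision was taken from the spread between libraries.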

Additional observations from a re-analysis of the deposited data

How the results depend on the processing

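Called members kept their sign under every alternative run. Counts of the 28 genes called lower or higher moved by over 1.5 times as follows, and smaller moves are named where they change a gene. The replicate block raised the lower calls from 1 to 2 in WT at 12 h and from 1 to 3 in delta at 12 h. For the changes averaged over genotypes it gave 1 higher at 12 h, and 2 higher and 8 lower at 24 h against 1 and 5, and the block changed no other call than those given with the genes. Leaving out both 0 h replicate 1 libraries gave 2 lower in WT at 12 h, 2 higher and 3 lower in WT at 24 h against 0 and 2, 3 lower in delta at 12 h, 2 higher and 5 lower in delta at 24 h against 1 and 2, 4 lower in the averaged 12 h change against 5, 3 higher in the averaged 24 h change, and 2 higher (Cyp51 and Mvd) and 2 lower (Elovl6 and Ebp) against 0 from 12 to 24 h on average. Calls over all genes rose too in this fit, to 1170 from 563 in WT and 2351 from 979 in delta at 12 h, to 2826 from 1427 and 3875 from 2151 at 24 h, and to 2065 from 598 from 12 to 24 h on average. Quantile normalization gave 1 higher in WT at 24 h, 1 higher in the averaged 12 h change, and 2 higher and 3 lower at 24 h on average. TMM scaling added Scd2 to the averaged 12 h change, 6 lower against 5. With no filter, 1 was lower in WT at 24 h and 2 in the averaged 12 h change. With WT and delta of the same number averaged, 1 was lower at 12 h, and 0 higher and 2 lower at 24 h. The cause of these shifts was not tested. Leaving out 1 library gave, for higher and lower, 0 to 0 and 0 to 1 in WT at 12 h, 0 to 0 and 0 to 2 in WT at 24 h, 0 to 2 and 0 to 7 in delta at 12 h, 0 to 3 and 0 to 6 in delta at 24 h, 0 to 2 and 1 to 9 in the averaged 12 h change, and 1 to 3 and 2 to 9 in the averaged 24 h change. The upper ends in delta and on average came without delta 0 h replicate 2, a fit that called 4535 of 13808 genes in delta at 12 h and 5085 at 24 h, with Srebf2 and Elovl6 (12 h) and Srebf2, Acaca and Sqle (24 h) higher. The same fit called Tm7sf2, Ebp, Msmo1, Pmvk, Sc5d and Insig1 lower in delta at both times, and Acat2 at 12 h. Without WT 0 h replicate 2, Cyp51, Msmo1 and Stard4 were among the lower calls of the averaged 12 h change. In such fits a group of 2 holds 1 library, which is assumed to vary like the other groups. Without both 0 h replicate 1 libraries this holds for both 0 h groups, whose replicates differed most, so p-values of that fit tend to be too small. No fit left out both 0 h replicate 2 libraries. Depth as a limit for the 28 genes was not tested.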

Other observations

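The called genes named in this section were likewise those of smallest adjusted p, and their calls were not examined under the alternatives. A wider list held genes that move and store sterols and targets of LXR, the sensor of oxidised sterols. Of 11 tested, 3 were lower and 0 higher at 24 h in each genotype, with a median change of -0.49 in WT and -0.74 in delta, beside 4.94% and 7.8% of all genes called lower and all-gene medians of -0.03 and -0.05. Npc2, which carries cholesterol out of lysosomes, had 172 and 109 FPKM in WT at 0 h, 33.6 and 42.0 at 12 h, and 28.3 and 27.4 at 24 h. It fell by 2.25 ± 0.24 on the log2 scale in WT (limma adjusted p = 0.0006) and fell by 2.71 ± 0.24 in delta (0.000188). Apoe, the lipid carrier, went from 517 and 270.5 FPKM to 173 and 149 in WT, a fall of 1.21 ± 0.29 (0.028), and fell by 1.52 ± 0.29 in delta (0.00769). Mylip, an LXR target that marks lipoprotein receptors for degradation, fell by 1.07 ± 0.20 (0.0103) and 1.40 ± 0.20 (0.00214).

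Fatty acid oxidation, the breakdown of fatty acids in mitochondria, had 0 of 15 tested genes higher and 2 lower in WT at 24 h, and 1 higher and 3 lower in delta, with a median of -0.24 in each, beside 5.27% of all genes higher and 4.94% lower in WT and 7.58% and 7.8% in delta. Acadm, the medium-chain acyl-CoA dehydrogenase, went from 76.8 and 62.7 FPKM at 0 h to 30.9 and 31.9 at 24 h in WT and fell by 1.12 ± 0.29 (limma adjusted p = 0.0415), and fell by 1.27 ± 0.29 in delta (0.0187). Acads, its short-chain counterpart, fell by 1.07 ± 0.29 (0.0484) and 1.22 ± 0.29 (0.0222). Acadvl, the very-long-chain form, rose in delta by 0.90 ± 0.23 (0.0303), and the WT change was 0.43 ± 0.23 (0.307).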
